A study of Rattus norvegicus with 18 samples.

Results

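Messenger RNA levels after 48 h of phenylephrine were set against those at 0 h in cultured heart muscle cells that had received vehicle. The cells were neonatal rat ventricular myocytes, cultured from the hearts of Sprague-Dawley pups of day 2. They were plated in serum and moved to a serum-free medium with ITS, and both groups then had vehicle for 24 h. The 48 h group was given phenylephrine (PE) for 48 h, and RNA of the 0 h group was taken before any PE. Each group had 3 libraries, of 18 libraries in 6 groups in all. The other 4 groups were vehicle with 4 h of PE, and SR9009, a synthetic agonist of the REV-ERB nuclear receptors, with 0, 4 or 48 h of PE. There was no vehicle culture at 48 h without PE, so the effect of PE and that of 48 more hours in culture cannot be told apart. The labels do not say whether the 3 libraries of a group came from separate preparations of cells.

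The authors' table gave 1 value per gene and group in FPKM (fragments per kilobase of transcript, scaled to sequencing depth), with a lower and an upper bound, and these values carried no spread between libraries. No difference could therefore be tested, and every result below is a description. A gene entered the comparison when its mean over the 6 groups was at least 1 FPKM and it had a value above 0 with an estimate in both groups, which gave 10432 of 17312 genes. That mean was reached by 10545 genes. Of these, 5 had too many fragments for an estimate in one of the groups compared, and 108 were listed at 0 in at least one, 106 of them small RNAs named Mir or Snor. Another 16 genes had a value outside its own bounds and were not counted, which left 10416. Differences are of log2(FPKM + 1), 48 h minus 0 h, and the range in parentheses after one is the widest that the authors' bounds allow. To count as higher or lower, a gene needed a difference of 1 or more in size, which is 2-fold, and a range without 0.

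Phenylephrine is an agonist of the α1-adrenergic receptors, which act through the G protein Gq, phospholipase C, calcium and protein kinase C. In cultured ventricular myocytes it is a standard stimulus of hypertrophy, in which cells enlarge without dividing, add sarcomeres and express again genes of the fetal heart. The natriuretic peptides and the skeletal actin isoform are the usual readouts of that state.

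By this rule 507 genes were higher at 48 h (4.87% of those counted) and 412 were lower (3.96%), together 919 (8.82%). The median difference of all counted genes was 0.01, the quartiles lay at -0.29 and 0.30, and 50.9% of genes lay above 0. The higher genes had a median size of 1.37, with 91 at 2 or more and 13 at 3 or more, and median levels of 29.1 FPKM at 48 h and 10.1 at 0 h. The lower genes had a median size of 1.28, with 47 at 2 or more and 3 at 3 or more, and median levels of 6.27 FPKM at 48 h and 17.9 at 0 h. The 47 gene lists used below held 148 of the higher genes and 87 of the lower, and some genes are in more than 1 list. These lists were chosen with earlier results of these data known, so counts within them are no independent support. Among abundant genes more were higher than lower: of 987 genes averaging 100 FPKM or more, 77 were higher and 33 lower, while the 2066 genes between 1 and 5 FPKM had 102 in each direction. The authors' bounds reached a median of 14.9% of the value to either side in both groups, and a range was typically 0.42 to either side of its difference. At the edge of the rule, Arhgef6 was counted at 1.00 and Nuf2 was not at 0.999, and Ppfibp1 was counted at -1.01 while Phactr2 was not at -0.9997. At the edge of the level filter, Tspan1 entered with a mean of 1.00004 FPKM and Cyp2r1, at 0.9995 FPKM, did not. A further 38 genes reached the size, but their range held 0, among them the antiviral chemokine Cxcl10 at 2.23, the desaturase Fads2 at 1.47 and the myosin light chain Myl6 at -5.16, whose upper bound at 0 h was 124 FPKM for a value of 35.7.

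The split between the directions rests on how the groups are scaled. The FPKM of all genes summed to 710198 at 48 h and 609018 at 0 h. With both groups rescaled to equal sums, the median difference of all genes moved to -0.19 and 341 genes were higher and 666 lower. Of the genes described below as higher, Myocd (0.94), Gdf15 (0.94), Cdk1 (0.92), Nr4a1 (0.90), Ckb (0.89), Srxn1 (0.88), Rgs5 (0.88), Per2 (0.87), Fos (0.86), Nfil3 (0.80) and Hspb7 (0.79) then missed the rule. Centred on the median of all genes the split was 496 and 419, and with quantile normalization 523 and 415.

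**Figure D1:**
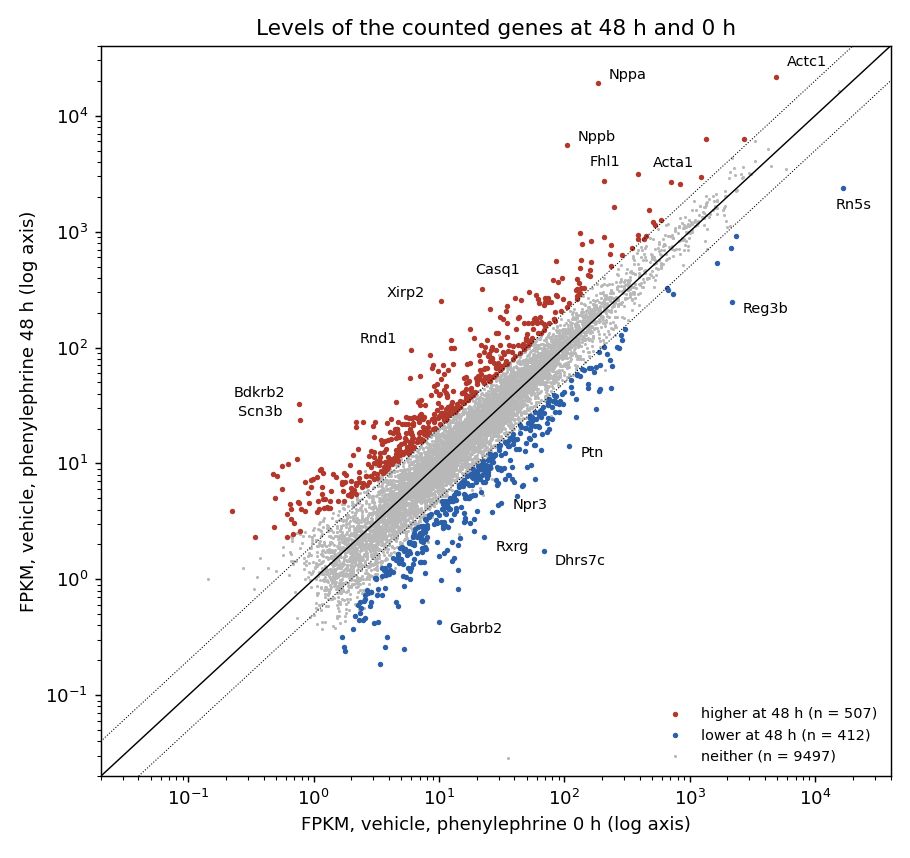
FPKM in vehicle-treated myocytes at 48 h of phenylephrine (vertical log axis) against 0 h (horizontal log axis), 1 point per counted gene, with the line of equal levels and dotted lines at 2-fold. The 507 higher genes (red) include Nppa at 19205 FPKM and Nppb at 5588, far above the line, and the 412 lower genes (blue) include Dhrs7c at 1.76 FPKM against 69.0 at 0 h.

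The label of the cells was held against defining markers first. Of 10 counted cardiomyocyte markers 2 were higher and 0 lower, with a median difference of 0.51 and a summed level of 39027 FPKM at 48 h and 16785 at 0 h. The cardiac actin Actc1 made up much of that gap: without it the other 9 summed to 17497 FPKM at 48 h and 11867 at 0 h, with a median of 0.15 (chosen after seeing the data). Cardiac troponin T (Tnnt2) stood at 2945 FPKM at 48 h against 2652 at 0 h and troponin I (Tnni3) at 1386 FPKM at 48 h against 1891 at 0 h. Other cell types were present at lower levels. The 10 fibroblast markers summed to 1338 FPKM at 48 h and 2102 at 0 h, 8 endothelial markers to 18.5 and 29.1 FPKM, and 7 macrophage markers to 17.5 and 41.5 FPKM. All 25 of these markers lay below 0, and 6 fibroblast markers, 1 macrophage marker and 0 endothelial markers were lower. In RNA from a whole culture, fewer cells of a type and less RNA per cell cannot be told apart. The 10 smooth muscle and pericyte markers had 4 higher and 2 lower, with summed levels of 2082 FPKM at 48 h and 1529 at 0 h. Hemoglobin genes, markers of red blood cells, had 2 of 4 lower, with 15.8 FPKM in all at 48 h against 50.7 at 0 h. The B cell marker Ms4a1, the neuropeptide gene Npy and the fibroblast collagen Col1a2 were listed at 0 in both groups. A listed 0 can be a failed estimate, and ribosomal and chaperone genes that all cells use, such as Rps6 and Hsp90aa1, were listed at 0 as well.

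The natriuretic peptides had the largest differences of all counted genes. Both are hormones that heart muscle releases under load, and their genes lie side by side. Nppa, which encodes atrial natriuretic peptide (chromosome 5, 164808407 to 164809716, rn6), stood at 19205 FPKM at 48 h, with bounds of 15020.0 to 23391, and at 184 FPKM at 0 h, with bounds of 158 to 210.5. The bounds did not overlap, and the difference was 6.69 (6.15 to 7.20), or 104-fold. The gene of brain natriuretic peptide, Nppb (chromosome 5, 164796229 to 164797531), stood at 5588 FPKM at 48 h against 105 at 0 h, which is 5.71 (5.29 to 6.14) or 53.0-fold. At 4 h, between these times, Nppa was at 716 FPKM and Nppb at 1208. Nppa took up 2.70% of all FPKM at 48 h and 0.0303% at 0 h, and Nppb 0.787% and 0.0173%. The processing and receiving side went the other way: Corin, the protease that cleaves the atrial peptide precursor, was at 2.09 FPKM at 48 h against 7.50 at 0 h (-1.46), and Npr3, the receptor that clears the peptides, at 4.39 FPKM at 48 h against 29.5 at 0 h (-2.50). The guanylyl cyclase receptors Npr1 (-0.69) and Npr2 (-0.73) and the convertase Furin (0.07) did not meet the rule. The third peptide, Nppc, had 0.0860 FPKM at 48 h and 1.49 at 0 h and fell under the level filter.

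Stretches of the Nppa, Nppb and Acta1 promoters are shown because they carry short elements known from studies of these genes in cardiac cells. They come from RefSeq promoters on the rat build GRCr8 and read 5′ to 3′ up to the base before the annotated start. Capitals mark a GATA element (TGATAA) in Nppa and Nppb, an M-CAT element (CATTCC, or GGAATG on the other strand) in Nppb and Acta1, and a CArG box in Acta1.
Nppa (chr5:163712024-163712183, plus strand): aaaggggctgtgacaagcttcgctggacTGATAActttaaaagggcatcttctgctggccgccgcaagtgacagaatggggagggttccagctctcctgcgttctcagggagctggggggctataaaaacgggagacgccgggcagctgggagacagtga
Nppb (chr5:163699848-163700007, plus strand): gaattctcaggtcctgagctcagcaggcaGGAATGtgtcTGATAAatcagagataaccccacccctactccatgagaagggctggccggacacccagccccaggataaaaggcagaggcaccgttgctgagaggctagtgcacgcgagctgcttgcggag
Acta1 (chr19:68784195-68784314, minus strand): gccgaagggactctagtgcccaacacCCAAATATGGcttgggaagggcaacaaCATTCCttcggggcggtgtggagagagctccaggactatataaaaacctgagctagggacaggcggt
Within 250 bases before the start and on both strands, M-CAT was found in 5 of 11 hypertrophy genes with a RefSeq promoter (45.5%) and in 10.5% of the 7906 counted genes with one. The GATA element was found in 2 of 11 against 3.85%, and the CArG box in 2 of 11 against 1.25%. Over all higher genes with a promoter the shares were near or below these, at 12.2% for M-CAT, 1.86% for GATA and 1.06% for CArG. Over all lower genes they were 12.6%, 4.44% and 0%. A gene counts once if any of its RefSeq starts holds the letters, and a match is not a shown binding site.

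The list of fetal and hypertrophy-associated genes had 14 of 15 counted members higher, 0 lower, and a median of 2.24 against 0.01 over all genes. Its members, too, were chosen with earlier results known, so a high share is partly set by that choice. The skeletal muscle actin Acta1 stood at 3129 FPKM at 48 h against 387 at 0 h, which is 3.01 (2.57 to 3.45). The cardiac actin Actc1, the most abundant counted transcript at 48 h, stood at 21530.1 FPKM at 48 h against 4918 at 0 h (2.13). Xirp2, an actin-binding protein of the intercalated disc, stood at 252 FPKM at 48 h against 10.4 at 0 h (4.47). These were not all of one timing: Actc1 was at 17773 FPKM and Acta1 at 1536 FPKM after 4 h, whereas Xirp2 was at 15.8 FPKM, nearer to its 0 h level than to that at 48 h. The LIM-domain protein gene Fhl1 was at 2754 FPKM at 48 h against 209 at 0 h and the stretch-responsive nuclear and Z-disc factor Ankrd1 at 6269 FPKM at 48 h against 1346 at 0 h. The one counted member that did not differ by this rule was the smooth muscle gene Tagln, with 1036 FPKM at 48 h and 1034 at 0 h.

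Genes of the Z-disc, the structure that anchors thin filaments, counted 13 of 20 higher and 0 lower, and their median was 1.28. The muscle LIM protein gene Csrp3 was at 1643 FPKM at 48 h against 249 at 0 h, the intermediate filament gene Des at 2706 FPKM at 48 h against 712 at 0 h and the α-actinin-binding Pdlim3 at 183 FPKM at 48 h against 43.9 at 0 h. The contractile filaments had few such members. Of 11 troponins and tropomyosins 1 was higher, the slow skeletal troponin Tnnt1 at 1.27, with a median of 0.25. Of 16 myosin chains 3 were higher and 2 lower. Higher was the fast skeletal light chain Myl1, at 56.5 FPKM at 48 h against 7.09 at 0 h. Higher too were the embryonic and atrial light chain Myl4, at 781 FPKM at 48 h against 137 at 0 h, and the ventricular Myl2 (1.22). Myl2 met the rule as scaled by the authors and missed it, at 0.66, with quantile normalization. Lower were another atrial light chain, Myl7 (-1.03), and the kinase gene Mylk (-1.18). The cardiac heavy chains could not be compared: Myh6 had 1192 FPKM at 48 h and no estimate at 0 h, and Myh7 had no estimate at 48 h and 272 FPKM at 0 h. Both are near-identical neighbours, and how reads were split between them cannot be seen here.

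Genes under serum response factor and its cofactor myocardin had 8 of 21 higher and 1 lower, led beside the actins by calponin, Cnn1, at 229 FPKM at 48 h against 35.1 at 0 h. The myocardin gene itself, Myocd, was at 32.3 FPKM at 48 h against 14.0 at 0 h and already at 32.3 FPKM at 4 h. Of 14 cardiac transcription factors Myocd was the only one higher, and the ventricular homeobox gene Irx4, at 21.2 FPKM at 48 h against 58.8 at 0 h, the only one lower. In the calcineurin list, the feedback inhibitor Rcan1 stood at 286 FPKM at 48 h against 59.7 at 0 h, after 332 FPKM at 4 h. Of 17 chaperone genes 4 were higher, all of them small heat shock proteins of muscle: Hspb3 by 1.71, Cryab by 1.27, Hspb1 by 1.25 and Hspb7 by 1.01. Hspb7 lay at 1.00 or below under every other scaling tried.

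**Figure D2:**
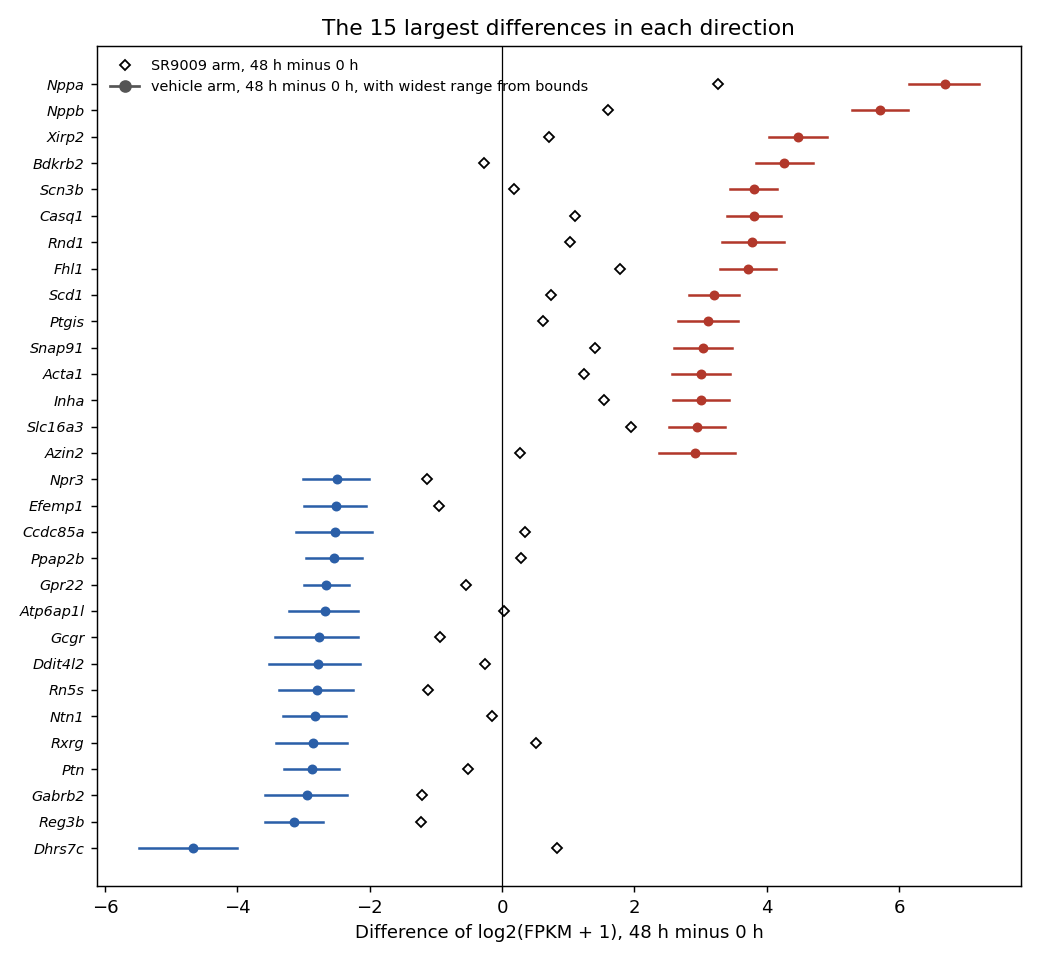
Differences of log2(FPKM + 1), 48 h minus 0 h, for the 15 largest in each direction among named genes of at least 5 FPKM in either vehicle group, with filled points for the vehicle arm, lines for the widest range from the authors' bounds and open diamonds for the SR9009 arm. The vehicle differences run from 2.92 (Azin2) to 6.69 (Nppa) among higher genes and from -2.50 (Npr3) to -4.67 (Dhrs7c) among lower ones, and each diamond lies nearer to 0 than its filled point.

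Genes of sarcoplasmic reticulum calcium handling and of potassium channels were more often lower than higher, and sodium and calcium channel genes were not. The latter depends on scaling: with FPKM rescaled to equal sums, 4 sodium and calcium channel genes were lower and their median was -0.11. The sarcoplasmic reticulum stores the calcium that triggers each beat, and of its 21 genes 3 were lower and 1 higher, with a median of -0.33. The calcium pump Atp2a2 was at 908 FPKM at 48 h against 2359 at 0 h (-1.38), while its level at 4 h was 2876 FPKM. Dhrs7c, a dehydrogenase of the sarcoplasmic reticulum (chromosome 10, 54352270 to 54370653), had the largest negative difference called, -4.67 (-5.48 to -4.01), with 69.0 FPKM at 0 h, 50.5 at 4 h and 1.76 at 48 h. The opposite case was Casq1, the calsequestrin of skeletal muscle, at 321 FPKM at 48 h against 22.1 at 0 h (3.80). The release channel Ryr2, at 93.0 FPKM at 48 h against 142 at 0 h, did not meet the rule (-0.60).

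Potassium channels, which carry the repolarizing and resting currents, had 6 of 16 genes lower and 1 higher, with a median of -0.55. The inward rectifiers Kcnj2 (10.7 FPKM at 48 h against 37.0 at 0 h, -1.69) and Kcnj12 (-1.26), Kcnj3 of the acetylcholine-gated channel (-1.22), Kcnj11 of the ATP-sensitive channel (-1.12), the HERG channel Kcnh2 (-1.22) and the accessory subunit Kcne4 (-1.59) were the lower ones. The higher one was Kcne1, the accessory subunit of the slow delayed rectifier, with 25.1 FPKM at 48 h and 6.90 at 0 h (1.73). Of 15 sodium and calcium channel genes 2 were higher and 2 lower, with a median of 0.11, and the sodium channel accessory subunits went in opposite directions. Scn3b stood at 23.9 FPKM at 48 h against 0.776 at 0 h (3.81), and its bounds at 48 h, 20.3 to 27.4 FPKM, lay far above those at 0 h, 0.596 to 0.955 FPKM. Scn4b stood at 1.60 FPKM at 48 h against 10.0 at 0 h (-2.08). The transient receptor potential channel gene Trpc6 was lower (-1.17). At cell junctions the desmosomal cadherin Dsc2 was at 21.7 FPKM at 48 h against 5.31 at 0 h (1.85) and the atrial and conduction-tissue connexin Gja5 at 6.95 FPKM at 48 h against 23.1 at 0 h (-1.60), while the main ventricular connexin Gja1 (-0.24) met no rule.

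Among the receptors for the stimulus itself, 2 of the 3 α1-adrenergic genes were lower. Adra1b was at 39.5 FPKM at 0 h, 13.6 at 4 h and 6.87 at 48 h, or -2.36 (-2.80 to -1.94) at 48 h against 0 h. Adra1d was at 36.3 FPKM at 0 h, 13.3 at 4 h and 7.94 at 48 h (-2.06). Adra1a had 19.9 FPKM at 48 h and 12.6 at 0 h, which did not meet the rule (0.62). At 48 h Adra1a was the most abundant of the 3 per length, and at 0 h the least. The β1 receptor Adrb1 (25.3 FPKM at 48 h against 64.6 at 0 h, -1.32) and the adenylyl cyclase Adcy5 (-1.24) were lower too, so that 4 of 19 genes of the list were lower and 1 higher, the G-protein regulator Rgs5 at 1.08. Other receptors of vasoactive peptides were split. The bradykinin B2 receptor Bdkrb2 was at 0.759 FPKM at 0 h, 42.9 at 4 h and 32.7 at 48 h, or 4.26 (3.83 to 4.69) at 48 h against 0 h. The sphingosine 1-phosphate receptor S1pr1 was at 121 FPKM at 48 h against 18.9 at 0 h (2.62), and the angiotensin receptor Agtr1a (-1.63) and endothelin receptor Ednra (-1.27) were lower. Outside the lists, the glucagon receptor Gcgr (1.21 FPKM at 48 h against 14.1 at 0 h, -2.77) and the orphan receptor Gpr22 (-2.66) were lower, and the small GTPase gene Rnd1 was higher at 94.4 FPKM at 48 h against 5.93 at 0 h (3.78).

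Immediate early genes, which are switched on within minutes of a stimulus without new protein, still had 9 of 25 higher and 0 lower at 48 h, with a median of 0.63. The kinase gene Sik1 was at 10.9 FPKM at 0 h, 160.4 at 4 h and 70.4 at 48 h, and the transcription factor Atf3 differed by 2.52. The nuclear receptor Nr4a1 was at 4.36 FPKM at 0 h, 52.5 at 4 h and 10.4 at 48 h, and Fos at 8.04, 44.6 and 17.9 FPKM at the same times. In Sik1, Nr4a1 and Fos the 48 h value lay between those at 0 h and 4 h. The phosphatases Dusp4 (2.24) and Dusp8 (2.13), which act back on MAP kinases, were the 2 higher genes of 14 feedback inhibitors.

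**Figure D3:**
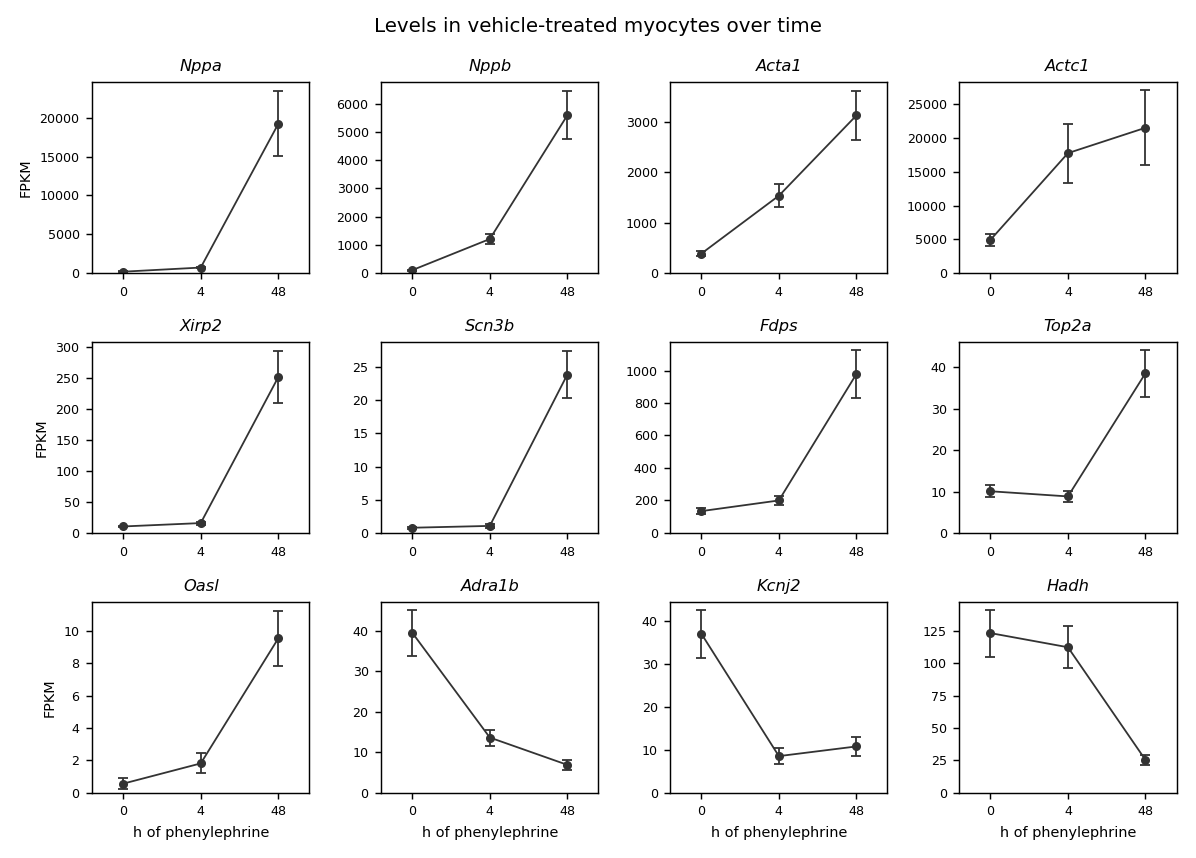
FPKM of 12 genes in vehicle-treated myocytes at 0, 4 and 48 h of phenylephrine, each panel with its own axis from 0; points are the authors' value per group and bars their bounds. The first 9 panels, Nppa to Oasl, have their highest value at 48 h, while Adra1b, Kcnj2 and Hadh are lower at 48 h than at 0 h; Kcnj2 is at 8.50 FPKM at 4 h and Hadh at 112 FPKM.

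Genes of cholesterol synthesis were higher as a list, and those of fatty acid use were not. Cholesterol is made from acetyl-CoA through mevalonate, under the control of the transcription factor SREBP2. All 23 counted genes of this list lay above 0, 18 were higher and 0 lower, and the median was 1.75. Farnesyl diphosphate synthase, Fdps, was at 134 FPKM at 0 h, 199.8 at 4 h and 979 at 48 h (2.86). The synthase Hmgcs1 (366 FPKM at 48 h against 88.4 at 0 h) at the head of the pathway, squalene epoxidase Sqle (2.13) and the demethylase Cyp51 (1.91) were higher. The isomerase Idi1 differed by 2.56, but its locus overlaps that of Wdr37. Of 20 genes of fatty acid synthesis and lipid storage 6 were higher and 2 lower. Higher were the desaturases Scd1 (85.4 FPKM at 48 h against 8.41 at 0 h, 3.20), Scd2 (2.33) and Fads1 (2.08), which add double bonds, and lower were the acyltransferase Gpam (-1.15) and the lipid droplet protein Plin5 (-1.38).

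The sterol methyl oxidase promoter of Msmo1, a gene at 246 FPKM at 48 h against 69.6 at 0 h, is shown because CCAAT boxes, sites of the factor NF-Y, lie next to sterol elements in several genes of this pathway. Capitals mark CCAAT, which it holds 3 times.
Msmo1 (chr16:29746933-29747112, plus strand, GRCr8): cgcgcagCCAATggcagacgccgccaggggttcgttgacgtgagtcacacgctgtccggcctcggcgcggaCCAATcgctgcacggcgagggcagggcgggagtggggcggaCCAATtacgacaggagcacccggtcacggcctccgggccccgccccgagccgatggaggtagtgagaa
A CCAAT box on either strand was in 14 of 16 cholesterol genes with a RefSeq promoter (87.5%), against 36.3% of all counted genes with one. A simple form of the sterol element (TCACNCCAC) was in 0 of 16, against 1.15%, which says only that these letters are not in this window.

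Fatty acid uptake and β-oxidation, the main fuel route of the adult heart, had 6 of 28 genes lower and 0 higher, with 4 above 0 and a median of -0.49. The 3-hydroxyacyl-CoA dehydrogenase Hadh was at 123 FPKM at 0 h, 112 at 4 h and 25.3 at 48 h (-2.24). The peroxisomal and mitochondrial isomerase Ech1 was at 191, 117 and 42.1 FPKM at those times (-2.15). The fatty acid transporter Cd36 and the carnitine transferase Cpt1a, which admits fatty acids to mitochondria, differed by -1.03 and -1.01. Respiratory chain genes did not stand apart: of 38 subunits 0 were higher and 1 lower, the muscle isoform Cox8b at 532 FPKM at 48 h against 1644 at 0 h (-1.63), with a median of -0.06. The 28 genes of the tricarboxylic acid cycle and branched-chain amino acid oxidation had 1 lower, the dehydrogenase subunit Bckdha (-1.35), and a median of -0.12. In glycolysis and glucose handling 5 of 25 genes were higher and 3 lower, and isoforms of one step parted. The platelet and liver phosphofructokinases Pfkp (2.21) and Pfkl (1.47) were higher and the muscle form Pfkm (-1.13) lower; the mutase Pgam1 was higher (1.26) and its muscle form Pgam2 lower (-1.08). The lactate exporter Slc16a3 was at 144 FPKM at 48 h against 17.7 at 0 h (2.95) and the brain-type aldolase Aldoc at 24.0 FPKM at 48 h against 80.3 at 0 h (-1.70). Creatine kinases parted in the same manner: the brain form Ckb was higher (1.11), and the muscle form Ckm (-1.02) and mitochondrial form Ckmt2 (-1.11) were lower.

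Mitotic genes, which hypertrophic growth by itself does not need, were higher. All 22 counted genes of this list lay above 0, 15 were higher and 0 lower, with a median of 1.08. The microtubule bundler Prc1 stood at 11.3 FPKM at 0 h, 10.7 at 4 h and 46.9 at 48 h (1.96). Topoisomerase Top2a stood at 10.1, 8.82 and 38.6 FPKM at those times (1.84), and the kinase Cdk1, which drives entry into mitosis, at 24.5, 19.1 and 55.1 FPKM (1.14). For these 3 genes the 4 h value was the lowest. DNA replication had 4 of 24 genes higher and 0 lower, 23 above 0, and a median of 0.54, with the ribonucleotide reductase subunit Rrm2 first at 133 FPKM at 48 h against 28.3 at 0 h (2.20). Cell cycle inhibitors and G1 cyclins were split, with 3 of 19 genes higher and 2 lower. Cyclin D1 (Ccnd1, 49.9 FPKM at 48 h against 16.9 at 0 h) and the growth arrest gene Gadd45g (301 FPKM at 48 h against 52.2 at 0 h, 2.50) were higher. The inhibitors parted: Cdkn2b was higher (18.3 FPKM at 48 h against 4.33 at 0 h, 1.85) and Cdkn1c lower (9.37 FPKM at 48 h against 38.4 at 0 h, -1.92). After rescaling to equal sums 8 mitotic genes were higher, and with a pseudocount of 5 there were 6; the replication genes higher were 1 in either case. Markers of other cells in the culture went both ways. Fibroblast markers lay below 0 in 10 of 10 cases, endothelial in 8 of 8 and macrophage in 7 of 7. Of 10 smooth muscle and pericyte markers 4 were higher and 2 lower. Of 4 mesothelial and epicardial markers 3 lay above 0, with 0 higher by the rule. Which cells carried the mitotic transcripts was not tested.

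Prc1 and Cdk1 promoters are shown because genes of late cell cycle phases commonly pair a CCAAT box with a cell cycle genes homology region (TTTGAA). Capitals mark both elements, CCAAT as ATTGG where it lies on the other strand.
Prc1 (chr1:143659381-143659480, plus strand, GRCr8): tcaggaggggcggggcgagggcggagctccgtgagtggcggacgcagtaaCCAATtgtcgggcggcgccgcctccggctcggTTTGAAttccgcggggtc
Cdk1 (chr20:19265193-19265292, plus strand, GRCr8): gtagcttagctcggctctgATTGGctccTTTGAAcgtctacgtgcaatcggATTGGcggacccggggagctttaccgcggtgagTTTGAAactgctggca
Within 250 bases before the start, CCAAT was in 15 of 18 mitotic genes with a RefSeq promoter (83.3%) against 36.3% of counted genes, and the homology region in 9 of 18 against 10.2%. CCAAT was in 40.8% of all higher and 36.9% of all lower genes, and the homology region in 14.9% and 9.56%.

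Genes of the proteasome and the ribosome had small differences, mostly above 0. All 27 proteasome subunits lay above the median of all genes, between 0.12 (Psma2) and 0.92 (Psmd14), with a median of 0.42 and 0 meeting the rule. The 19 ribosome biogenesis genes had a median of 0.54 and the 24 counted ribosomal protein genes 0.25, again with 0 meeting it; the second median was -0.01 after quantile normalization. Chaperones of the endoplasmic reticulum had 0 of 20 meeting it and a median of -0.07. Of 17 ubiquitin ligases and FOXO targets 3 were lower and 0 higher, with the PI3-kinase inhibitor Pik3ip1 at 9.38 FPKM at 48 h against 50.7 at 0 h (-2.32), the atrophy-linked ligase subunit Fbxo32 at 27.6 FPKM at 48 h against 84.8 at 0 h (-1.59) and the factor Klf15 at -1.14. The other well-known atrophy ligase, Trim63, did not meet the rule (-0.65). Of 26 lysosome and autophagy genes 2 were lower and 0 higher, with a median of -0.19. With 3.96% of all counted genes lower, so few do not set the list apart. The 2 were the kinases Pink1 of mitophagy (194 FPKM at 0 h, 193 at 4 h and 43.5 at 48 h, -2.13) and Ulk1 of autophagosome formation (-1.15).

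**Figure D4:**
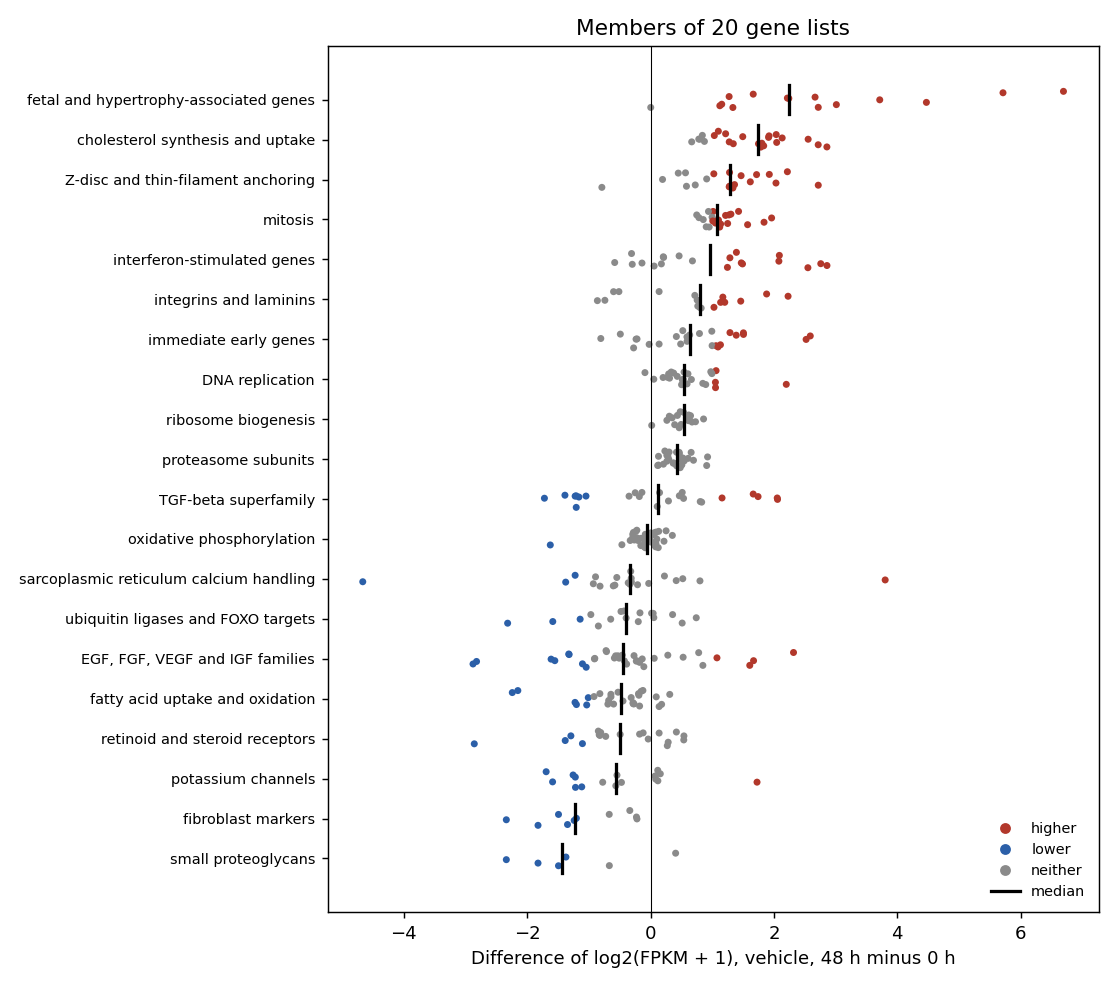
Differences of log2(FPKM + 1), 48 h minus 0 h in vehicle, of the counted members of 20 gene lists, 1 point per gene, red where higher, blue where lower and grey where neither, with a bar at the list's median. Medians run from 2.24 for hypertrophy-associated genes to -1.43 for small proteoglycans, and the cholesterol and mitosis lists lie wholly above 0 while fibroblast markers lie wholly below it.

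Extracellular matrix genes were more often lower among small proteoglycans and collagens and more often higher among laminins and integrins, which tie cells to the basement membrane. The list of small proteoglycans, which also holds the matrix protein dermatopontin, had 4 of 6 counted genes lower and 0 higher. Among the lower were dermatopontin (Dpt, 1.99 FPKM at 48 h against 14.1 at 0 h, -2.34), lumican (Lum, -1.82) and decorin (Dcn, -1.49). Of 14 collagens 4 were lower and 0 higher, with Col3a1 at 289 FPKM at 48 h against 737 at 0 h (-1.35), the fibril-associated Col14a1 at -1.66 and the basement membrane collagens Col4a3 at -1.43 and Col15a1 at -1.07, whereas Col1a1 at 701 FPKM at 48 h against 817 at 0 h (-0.22) met no rule. Elastin, Eln, was at 235 FPKM at 0 h, 49.7 at 4 h and 44.7 at 48 h (-2.37). Dpt, Lum, Dcn and Col3a1 are themselves among the 10 fibroblast markers, whose summed level was 1338 FPKM at 48 h and 2102 at 0 h. Of 24 matricellular and elastic fibre genes, Eln among them, 1 was higher and 5 were lower. The higher one was connective tissue growth factor (Ctgf), at 1541 FPKM at 48 h against 474 at 0 h (1.70). Fbln1 (-1.81), Wisp2 (-1.74) and Nov (-1.74) were among the lower. Of 17 integrins and laminins 7 were higher and 0 lower, with a median of 0.80; the laminin chain Lamb3 (105 FPKM at 48 h against 21.6 at 0 h, 2.23) and the fibronectin receptor subunit Itga5 (1.46) were among the higher ones. Rescaling to equal sums left 3 of these higher and 1 lower. Matrix proteases and inhibitors were split, with the urokinase receptor Plaur (1.78) higher and the aggrecanase Adamts5 (-2.05) lower.

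Secreted growth factors were found in both directions. In the TGF-beta superfamily 5 of 24 genes were higher and 7 lower: the ligands Tgfb2 (181 FPKM at 48 h against 42.8 at 0 h, 2.05), Inhba (2.06), Bmp7 (1.66) and Gdf15 (1.16) and the activin-binding Fstl3 (1.74) were higher. The ligands Bmp4 (-1.05), Bmp6 (-1.16), Gdf6 (-1.22) and Inhbb (-1.20), the receptors Tgfbr2 (-1.21) and Tgfbr3 (-1.72) and the target Id2 (-1.39) were lower. Inhibin alpha (Inha), which pairs with the activin subunits, was at 214 FPKM at 48 h against 25.7 at 0 h (3.01). Of 34 genes of the EGF, FGF, VEGF and IGF families 4 were higher, including the EGF receptor ligands Hbegf (2.32) and Areg (1.61), and 8 lower. Among the lower were 4 binding proteins of insulin-like growth factor, Igfbp2 (-1.61), Igfbp5 (-1.55), Igfbp4 (-1.33) and Igfbp6 (-1.04), the neuregulin receptor Erbb4 (-1.10), and pleiotrophin, Ptn, at 14.0 FPKM at 48 h against 109.6 at 0 h (-2.88). Netrin 1, the guidance cue Ntn1, was at 7.35 FPKM at 48 h against 58.0 at 0 h (-2.82).

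Genes induced by interferon, the antiviral signal, counted 10 of 20 higher and 0 lower, and their median was 0.96. Of the 12 members averaging 5 FPKM or more 4 were higher, with a median of 0.19, so 6 of the 10 were genes of low level. The ubiquitin-like modifier Isg15 was at 8.95 FPKM at 0 h, 28.4 at 4 h and 71.3 at 48 h (2.86). Oasl, of the oligoadenylate synthetase family, was at 0.556, 1.81 and 9.54 FPKM at those times (2.76). Ifit3 (7.86 FPKM at 48 h against 0.512 at 0 h, 2.55), Ifit1 (2.08), which block viral RNA, and viperin, Rsad2 (6.85 FPKM at 48 h against 0.845 at 0 h, 2.09), were under 1 FPKM at 0 h and above 5 at 48 h. The signalling genes Stat2 (0.21) and Irf7 (0.68) did not meet the rule. Macrophage markers, beside these, lay below 0 in 7 of 7 cases, and the antigen-presentation gene Cd74 was at 3.34 FPKM at 48 h against 19.0 at 0 h (-2.20). Which cells carried the interferon-induced transcripts was not tested. In the inflammatory list 5 of 19 genes were higher and 2 lower. The first of them was the TWEAK receptor Tnfrsf12a at 86.5 FPKM at 0 h, 709 at 4 h and 563 at 48 h (2.69), with the cyclooxygenase Ptgs2 at 1.75. Prostacyclin synthase, Ptgis, downstream of it, was at 115 FPKM at 48 h against 12.5 at 0 h (3.11). Reg3b, a secreted lectin of a family with close copies, was at 246 FPKM at 48 h against 2186 at 0 h (-3.14).

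The Ifit3 and Rsad2 promoters are shown for the interferon-stimulated response element, the site that interferon-activated factors bind. Capitals mark the match, which in both lies on the other strand.
Ifit3 (chr1:241527206-241527325, plus strand, GRCr8): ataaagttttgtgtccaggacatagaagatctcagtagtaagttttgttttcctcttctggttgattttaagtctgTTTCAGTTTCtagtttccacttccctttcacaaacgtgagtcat
Rsad2 (chr6:48788121-48788300, minus strand, GRCr8): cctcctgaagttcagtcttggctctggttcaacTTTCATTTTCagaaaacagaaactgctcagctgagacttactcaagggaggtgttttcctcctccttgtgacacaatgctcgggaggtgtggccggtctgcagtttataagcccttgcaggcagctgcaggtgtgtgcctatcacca
The element was in 6 of 13 interferon-stimulated genes with a RefSeq promoter (46.2%), against 2.61% of counted genes. It was in 2.39% of all higher and 3.07% of all lower genes.

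Receptors of the retinoid and steroid list were lower more often than higher: of 19 genes 4 were lower and 0 higher. The retinoid X receptors Rxrg (2.32 FPKM at 48 h against 23.0 at 0 h, -2.86) and Rxra (-1.29), the thyroid hormone receptor Thrb (-1.10) and the orphan receptor Nr2f2 (-1.38) were the lower ones. Of 15 clock genes 3 were higher, Bhlhe40 (1.56), Per2 (1.07) and Nfil3 (1.01). The targets of SR9009, Nr1d1 (0.20 (-0.76 to 1.29), at a locus that overlaps Thra) and Nr1d2 (-0.83), and their target Arntl (0.74) did not meet the rule, although Nr1d2 met it, at -1.05, with equal sums.

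Several genes were near absence in one group. Going by under 1 FPKM at 0 h and at least 5 at 48 h, there were 13 such genes among the 10416 counted. The level filter used the mean over all 6 groups, so a gene could pass it through the 48 h group alone. Myh3, for example, had a mean of 1.35 FPKM. Beside Bdkrb2, Scn3b, Oasl, Ifit1, Ifit3 and Rsad2 these were the embryonic myosin heavy chain Myh3 (5.59 FPKM at 48 h against 0.894 at 0 h), the lymphatic growth factor receptor Flt4 (10.9 FPKM at 48 h against 0.739 at 0 h), the protease-activated receptor F2rl1 (8.06 FPKM at 48 h against 0.477 at 0 h), the skeletal muscle triad protein Sypl2 (9.91 FPKM at 48 h against 0.628 at 0 h), the metalloprotease Adamts19, LOC689770 and Hspa1l, whose locus overlaps Hspa1a. The reverse, at least 5 FPKM at 0 h and under 1 at 48 h, held for 6 of the 10416 genes. These were the GABA receptor subunit Gabrb2 (0.428 FPKM at 48 h against 9.96 at 0 h), the angiopoietin Angpt1 (0.877 FPKM at 48 h against 5.24 at 0 h), the PIWI protein Piwil2 (0.250 FPKM at 48 h against 5.30 at 0 h), Efhd1, Ccdc85a and LOC100362172. The 5S ribosomal RNA entry Rn5s, an RNA without a poly(A) tail, stood at 16652 FPKM at 0 h, 2937 at 4 h and 2387 at 48 h, and took up 0.336% of all FPKM at 48 h and 2.73% at 0 h. Its level at 0 h in the SR9009 arm was 4741 FPKM, so the vehicle 0 h group was the highest of the 4 groups given here. With equal sums computed without Rn5s the split of the whole comparison was 324 higher and 712 lower.

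The same contrast in the SR9009 arm, which shares no library with the vehicle arm, gave smaller differences for most of these genes. There 131 of 10409 genes were higher (1.26%) and 121 lower (1.16%), together 2.42%. Of the 507 genes higher in vehicle, 506 could be measured with SR9009: 55 were higher there (10.9%) and 4 lower, the median difference was 0.23, and 490 were smaller in size than in vehicle. Of the 412 lower genes 410 could be measured: 33 were lower with SR9009 (8.05%) and 6 higher, the median was -0.18, and 397 were smaller in size. Since the calls were made on the vehicle values, a smaller size in the other arm follows in part from the choice of genes, and the difference between arms was not tested. Among the leading genes, Nppa differed by 6.69 in vehicle and 3.26 with SR9009 (1734 FPKM at 48 h and 181 at 0 h), and Nppb by 5.71 and 1.61. Xirp2 (4.47 and 0.70), Scn3b (3.81 and 0.19) and Bdkrb2 (4.26 and -0.27) met the rule in vehicle and did not with SR9009. The laminin chain Lamb3, at 2.23 in vehicle and 2.12 with SR9009, was nearly alike in both.

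The lists, too, stood side by side unequally. The mitosis list had 15 members higher and a median of 1.08 in vehicle, and 0 higher and -0.29 with SR9009. The cholesterol list had 18 and 1.75 in vehicle, and 1 and 0.53 with SR9009, and the interferon list 10 and 0.96, and 2 and -0.09. Z-disc genes were closer, with 13 of 20 higher in vehicle and 9 with SR9009. Cardiomyocyte markers had a median of 0.51 in vehicle and 1.20 with SR9009, but a larger difference was not always a higher level. At 0 h Actc1 was at 3160 FPKM with SR9009 and 4918 in vehicle, Tnnc1 at 2374 and 3317, and Myl3 at 1209 and 2187. At 48 h Actc1 was at 9484 FPKM with SR9009 and 21530 in vehicle, Tnnc1 at 4601 and 6081, and Myl3 at 3445 and 4308. SR9009 levels of the other markers are not reported here. Amino acid response and transfer RNA charging genes met the rule more often with SR9009. They had 1 of 25 higher and 0 lower in vehicle, and 0 higher and 14 lower with SR9009.

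**Figure D5:**
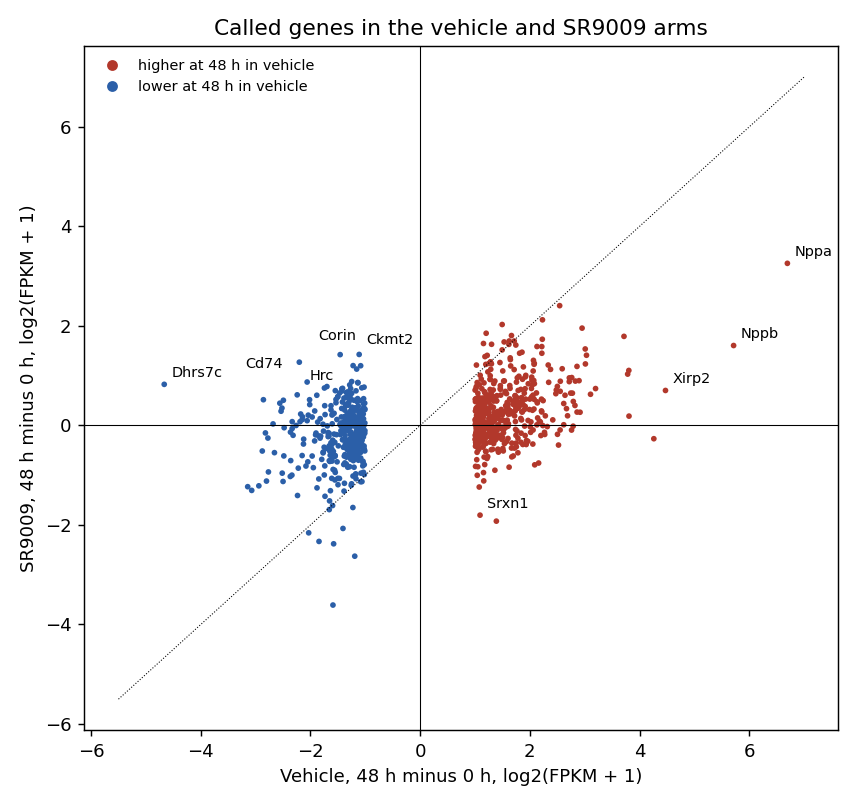
Difference of log2(FPKM + 1), 48 h minus 0 h, in the vehicle arm (horizontal axis) and the SR9009 arm (vertical axis), for the genes called higher (red) or lower (blue) in vehicle and measured in both; the dotted line marks equal differences. Most points lie between the line and 0, Nppa at 6.69 and 3.26 among them, and genes such as Corin and Srxn1 lie on the other side of 0.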

How the data were processed

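The libraries were made with a stranded messenger RNA kit, per the labels' protocols, and per the submitters' processing notes, which give no versions, TopHat, Cuffdiff, FastQC, Trim Galore and the build rn6 were used. The values are FPKM that the authors deposited, 1 per gene and group with a lower and an upper bound, a status and a locus, per the file headers. Neither the confidence level of the bounds nor any scaling between libraries is stated in those sources. Depth per library is unknown, values per library were not used here, and no spread between libraries, p-value or replicate test could be computed. Loci were written with the first base counted as 1.

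Groups were taken from the sample titles. The log scale was log2(FPKM + 1), on which a change in a low gene comes out too small. The size rule was chosen because the table holds 1 value per group, and it was tested on simulated data. The members and the 47 pathway and 9 marker lists were chosen with earlier results of these data known. Genes named are the 15 largest differences per direction with at least 5 FPKM, the 10 most abundant, up to 4 called members per list and 10 fixed genes; other list members and genes near absence were named for their role after their values were seen. Promoters of 27457 gene symbols came from a RefSeq table of build GRCr8, matched by symbol to 7906 of 10416 counted genes. Of the called genes 6.53% overlap another gene's locus, against 9.57% of all. Some list members are not reported here. Alternatives were other pseudocounts, level filters, scalings and sizes. Python 3.11.15, numpy 2.4.6, pandas 2.3.3 and matplotlib 3.10.9 were used.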

Additional observations from a re-analysis of the deposited data

Results flagged for a closer look

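Of the genes named, 7 met the size rule in vehicle in one direction and in the SR9009 arm in the other, 48 h minus 0 h; the difference between the arms was not tested. The antigen-presentation gene Cd74 was at -2.20 in vehicle and 1.27 with SR9009, where its level at 0 h was 3.46 FPKM, against 19.0 FPKM in vehicle at 0 h. Corin, the protease of the atrial peptide precursor, was at -1.46 in vehicle and 1.42 with SR9009. The mitochondrial creatine kinase Ckmt2 was at -1.11 and 1.43, the calcium-binding protein Hrc of the sarcoplasmic reticulum at -1.22 and 1.20, and the muscle mutase Pgam2 at -1.08 and 1.20. Their levels before any PE differed as well. At 0 h Corin was at 4.32 FPKM with SR9009 and 7.50 in vehicle, and Ckmt2 at 13.8 and 35.2. Hrc was at 12.5 and 26.0 FPKM, and Pgam2 at 57.7 and 113. The opposite signs were found in Srxn1, which encodes the antioxidant enzyme sulfiredoxin, at 1.09 in vehicle and -1.80 with SR9009, and in the stress-responsive ligand Gdf15, at 1.16 and -1.11. At 0 h Srxn1 was at 51.5 FPKM with SR9009 and 15.4 in vehicle, and Gdf15 at 84.3 and 46.7. For all 7 genes the arms thus differed at 0 h as well as at 48 h. With FPKM rescaled to equal sums, Srxn1 (0.88) and Gdf15 (0.94) no longer met the rule in vehicle.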

How the results depend on the processing

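Against 507 higher, 412 lower and 919 genes in all, 148 and 87 listed members and 252 genes in the SR9009 arm, a pseudocount of 5 gave 297, 189 and 486 genes and 163 in the SR9009 arm. A size of 1.5-fold gave 1179, 1080 and 2259 genes, 250 and 157 listed members and 1042 genes in the SR9009 arm, and a size of 4-fold gave 91, 47 and 138 genes, 45 and 15 members and 19 genes. Rescaled to equal sums the lower genes were 666, and without Rn5s in the sums 324 were higher and 712 lower (chosen after seeing the data); outside the 100 most abundant genes the split was 381 and 573. The other settings, a pseudocount of 0.1 (611 and 576), no level filter (521 and 425), a mean of at least 5 FPKM (405 and 310), size without the range (516 and 441) and genes without an overlapping locus (476 and 383, added after seeing the data), stayed within 1.5 times. Of 206 named genes that met the rule, 0 changed sign under these settings, which was largely set in advance. Each differed by 1 or more, other pseudocounts, filters or sizes cannot turn a sign, and equal sums moved the median of all genes only to -0.19. Of 28 named genes that did not meet the rule, 8 changed sign with equal sums, 7 with quantile normalization and 1 with median centring. Of the 206, 18 no longer met the rule with equal sums, 20 with equal sums without Rn5s and 6 with quantile normalization. With median centring 2 of them no longer met it, and with a pseudocount of 5 it was 48. The cause was not tested. With equal sums, 5 list medians changed sign: myosin chains to -0.09, sodium and calcium channels to -0.11, the TGF-beta superfamily to -0.09, amino acid response genes to -0.018 and antioxidant genes to -0.010. No paired analysis was possible because the table holds 1 value per group, and for the same reason no replicate could be left out. With depth unknown, the authors' bounds alone limit what low genes can show.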

Other observations

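Some of the largest differences were in genes outside the lists. Snap91, which encodes a clathrin assembly protein best known from nerve terminals, was at 54.9 FPKM at 48 h against 5.84 at 0 h (3.03), and Azin2, an inhibitor of the antizyme that restrains polyamine synthesis, at 23.0 FPKM at 48 h against 2.18 at 0 h (2.92). Efemp1, which encodes the matrix protein fibulin-3, was at 3.81 FPKM at 48 h against 26.5 at 0 h (-2.51), and the lipid phosphatase Ppap2b at 31.2 FPKM at 0 h, 58.0 at 4 h and 4.54 at 48 h (-2.54). Antioxidant genes had 1 of 19 higher and 2 lower in vehicle, the glutathione transferases Gsta1 (-1.84) and Gsta5 (-1.59, with an overlapping locus), against 0 higher and 9 lower with SR9009. The arms differed before any PE as well. At 0 h Gsta1 was at 101 FPKM with SR9009 and 28.3 in vehicle, and Gsta5 at 32.7 and 3.29. Apart from Srxn1, given above, 0 h levels of the other members are not reported here. Of the 2 steps that make creatine, the first enzyme Gatm was higher (1.39) and the second, Gamt, lower (-1.23). Within the pericyte markers, the proteoglycan Cspg4 was higher (2.00) and the receptor Notch3 lower (-1.59).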
